A study of Mus musculus with 6 samples.

Results

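The genes described here are 10 genes of the p53 pathway and of cell senescence, taken by their mouse symbols from a table of 55401 genes. They are Trp53, Mdm2, Cdkn1a, Ccng1, Sesn1, Bbc3, Phlda3, Cdkn1b, Cdkn2a and Lmnb1. Bulk RNA sequencing of poly(A)-selected RNA was carried out on 6 cultures labelled as mouse T cells, which the design text describes as selected for CD8a. Of these, 3 received control macrophage supernatant and 3 received supernatant from NFL-activated macrophages. NFL is neurofilament light chain, a protein of the axon's cytoskeleton. In both groups the macrophages were grown from CD11b+ spleen cells with 50 ng/mL M-CSF, a macrophage growth factor, over 7 days, and the filtered supernatant made up 50% of an RPMI-1640 medium with 2% FBS. The macrophages of the NFL group also received 5 µg/mL NFL, prepared from freeze-thawed sciatic nerve, for 24 h, while those of the control group were left untreated. The paper's methods for co-culture state a different NFL dose. Its methods for mice name a commercial NFL protein, and freeze-thawed sciatic nerve is there a separate treatment, the nerve lysate. Which NFL preparation and dose were used for these libraries is unclear. The labels and methods name no genotype for the T cells, and they do not say whether the 3 samples of a group came from separate mice or cultures, so the p-values measure the spread between these samples, which may be technical.

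Trp53 encodes p53, a transcription factor that is held at a low level because the ubiquitin ligase made from its own target gene Mdm2 marks it for destruction. Damaged DNA and other stress block this destruction, so p53 activity is set largely through the protein rather than through Trp53 mRNA, and the rise of its target genes is the usual sign of activity in RNA. Among these targets, Cdkn1a (p21) stops the cell cycle, Bbc3 (PUMA) and Phlda3 favour cell death, Sesn1 limits mTORC1 signalling, and Ccng1 encodes cyclin G1. Senescence is a lasting arrest of the cell cycle, recognised in many cells by raised Cdkn1a and Cdkn2a, loss of the nuclear lamin Lmnb1, increased lysosomal β-galactosidase and secretion of inflammatory factors. In T cells it is described after long stimulation, with loss of proliferation. The comparison addresses whether these transcripts differed in T cells that received NFL-activated macrophage supernatant.

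Short stretches of 3 promoters are shown because they belong to Trp53, whose transcript differed between the groups, and to 2 target genes with a close match to the p53 binding consensus near their start. Promoter windows of 300 bases (250 before the start of transcription and 50 from it on) came from RefSeq on GRCm38.p6 and were found for 9 of the 10 genes, 14 windows in all, with none for Lmnb1. Capitals mark the motif, which is GGACTTTCC, an NF-κB binding sequence, in Trp53 and the 20-base p53 consensus in the other sequences. Both strands were searched.

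Trp53, chr11:69580305-69580378, plus strand: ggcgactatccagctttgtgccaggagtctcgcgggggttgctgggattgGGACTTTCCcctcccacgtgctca
Cdkn1a, chr17:29090878-29090962, plus strand: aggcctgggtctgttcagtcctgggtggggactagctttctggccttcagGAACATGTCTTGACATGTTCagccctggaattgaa
Ccng1, chr11:40755447-40755531, minus strand: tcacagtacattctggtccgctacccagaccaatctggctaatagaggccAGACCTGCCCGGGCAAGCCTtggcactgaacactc

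Counted from the start of transcription as 0, the NF-κB sequence of Trp53 ran from -4 to 4, and 0.344% of 32851 mouse promoter windows held these letters. Only this exact spelling was searched, so NF-κB sites of other spelling were not counted in any window. The p53 consensus was searched with up to 2 mismatches and was matched in 0.798% of windows. In Ccng1, with 1 window, it lay at -195 to -176, and in Cdkn1a, with 2 windows, at -51 to -32 from the upstream start, each with 1 mismatch. The window of the other Cdkn1a start held no match. These are matches of letters in a short window and show no binding in these cells. Sequence outside the windows was not searched, so a gene without a match here may have a p53 site elsewhere.

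The libraries held 15843045 to 24639756 counts each, and at these depths 3 counts correspond to 0.122 to 0.189 CPM, the count scaled to a common library size. Library sizes were adjusted by TMM, which allows for differences in RNA composition. The sums and medians of cell markers, and the levels of genes that overlap a named gene, were instead scaled by total counts alone. The libraries were labelled as T cells, and of 10 T-cell markers 8 were detected, with a summed level of 1734 to 1816 CPM in the control libraries and 1661 to 1757 CPM in the NFL libraries, nearly all from Thy1. Cd2 and Cd5 had 0 counts in every library. Cd3e was lower with NFL supernatant, at 62.1, 64.6 and 56.4 CPM against 50.6, 49.1 and 50.8 CPM (log2 fold change -0.28, edgeR adjusted p = 5.72e-04), without overlap. The median level over the 6 libraries was 25.9 CPM for Cd4, 3.90 CPM for Cd8a and 1.27 CPM for Cd8b1, although the design text describes selection for CD8a. Cd3g, Lck and Cd3d were also low, with medians of 7.67, 4.41 and 4.14 CPM, so most of the detected T-cell markers were far below Thy1. Of 11 macrophage markers 5 were detected, mostly Cd68, summing to 25.4 to 28.3 CPM in the control libraries and 20.1 to 24.2 CPM in the NFL libraries, while C1qa, C1qb, C1qc, Cd14, Itgam and Mrc1 were at 0. Cd68 was lower with NFL supernatant (log2 fold change -0.26, edgeR adjusted p = 0.0494). The B-cell markers summed to 11.55 to 13.99 CPM over all libraries, with Ms4a1 and Ighm at 0, and the erythroid markers to 0.983 to 1.98 CPM, with Hba-a1 and Hbb-bs at 0. Of the NK-cell list, Ncr1 and Klra8 were at 0, and Eomes made up most of a sum of 461 to 482 CPM in the control libraries and 437 to 458 CPM in the NFL libraries. Eomes is not particular to NK cells, and the paper measured it in CD8+ T cells among molecules linked with exhaustion. Klrb1c of the NK-cell list fell from 32.5, 29.7 and 32.9 CPM to 22.4, 22.7 and 22.0 CPM (log2 fold change -0.51, edgeR adjusted p = 2.43e-06). The part of these markers and cell types in the results was not tested. In bulk RNA, fewer cells of a type and less RNA per cell cannot be told apart.

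Trp53 rose with NFL-activated macrophage supernatant, and it was the single gene among the 10 to pass the test. Of the other 9, 8 did not pass it, among them the arrest genes Cdkn1a and Cdkn2a and the lamin gene Lmnb1, and Phlda3 could not be tested because it had no counts. The test was edgeR's quasi-likelihood F test over the 14082 genes that passed a filter on low counts, with Benjamini-Hochberg adjustment over all of them and a threshold of 0.05. Of all genes tested, 7.0% passed, 3.47% higher and 3.53% lower with NFL supernatant (489 and 497 genes). When counts were scaled by library size alone, the split was 372 higher and 600 lower. Against this background, 1 of the 9 tested genes of the p53 pathway and senescence passed (11.1%), a share that 1 gene sets. Their median log2 fold change was -0.01, with 4 positive and 5 negative, and the median over all tested genes was -0.001.

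**Figure D1:**
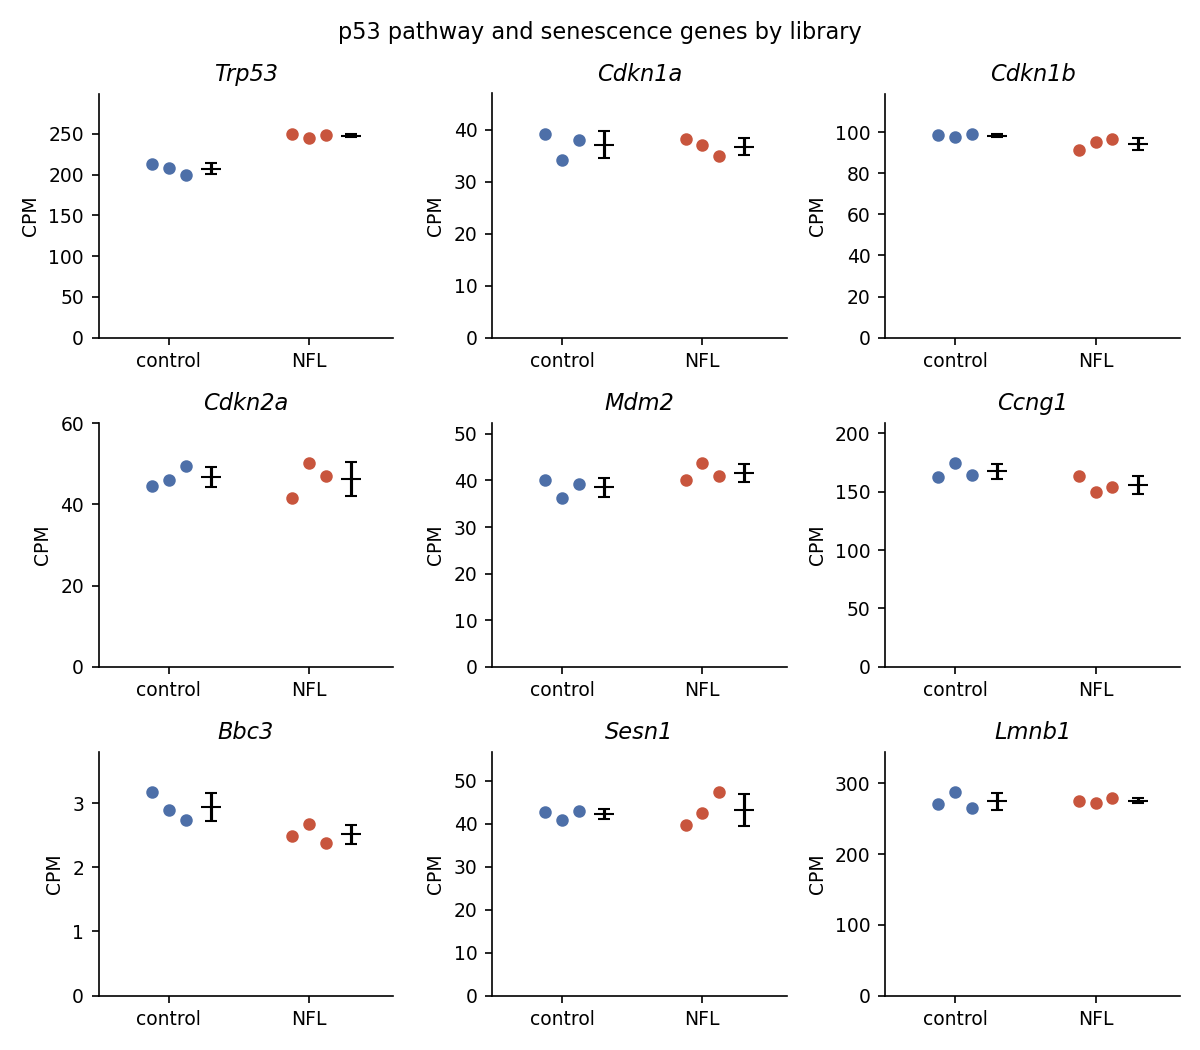
Level of each of the 9 tested genes in CPM (vertical axes start at 0) in the 3 control libraries (blue) and the 3 NFL libraries (red), with the mean and 1 SD as black bars. The NFL libraries of Trp53 sit at 246 to 250 CPM, above the control libraries at 200.1 to 214 CPM, while the groups overlap in 6 of the other panels and lie apart, with the NFL libraries lower, for Cdkn1b and Bbc3.

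Trp53 (ENSMUSG00000059552.13, chromosome 11 of GRCm38 from 69580359 to 69591873, plus strand) had 214, 209 and 200.1 CPM in control replicates 1 to 3 and 250, 246 and 249 CPM in NFL replicates 1 to 3. Every NFL library was above every control library. The means were 207 ± 6.85 CPM and 248 ± 2.15 CPM (SD, n = 3 each), a difference of 19.5%. This was a log2 fold change of 0.26 with a standard error of 0.033 and a 95% interval from 0.19 to 0.32 (edgeR adjusted p = 8.27e-08). With 3 against 3 samples, an exact two-sided permutation test can give no p-value below 0.1. Any gene whose groups do not overlap would reach that value, and these were 22.7% of the genes tested. No such test was run. Trp53 passed in all 14 alternative analyses that gave it a p-value, with log2 fold changes of 0.23 to 0.28, and its adjusted p-value was highest without NFL replicate 3 (2.48e-05). Between 3325 and 5258 reads per library lay behind these values. The processed pseudogene Trp53-ps had at most 3 counts in a library. Wrap53, the neighbouring gene that starts close to Trp53 and is transcribed away from it, was chosen for comparison after its values had been seen and had 18.5 ± 2.02 CPM against 19.0 ± 1.72 CPM (SD, n = 3 each, log2 fold change 0.03, edgeR adjusted p = 0.916).

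Mdm2 (chromosome 10 from 117688875 to 117710758), the ubiquitin ligase that removes p53 and is itself a target of p53, had 40.2, 36.3 and 39.3 CPM with control supernatant and 40.0, 43.7 and 41.0 CPM with NFL supernatant. The groups overlapped. The log2 fold change of 0.10 (standard error 0.064, 95% interval -0.03 to 0.23) did not pass (edgeR adjusted p = 0.409).

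Cdkn1a (chromosome 17 from 29090976 to 29100727), whose promoter stretch with the p53 motif is printed above, had 39.1, 34.3 and 37.9 CPM with control supernatant and 38.3, 37.1 and 34.9 CPM with NFL supernatant. The ranges were nearly the same in both groups. The means of 37.1 ± 2.54 CPM and 36.8 ± 1.68 CPM (SD, n = 3 each) gave a log2 fold change of -0.02 with a 95% interval from -0.16 to 0.11 (standard error 0.067), which did not pass (edgeR adjusted p = 0.918). A transcript of unknown type on the other strand shares 273 exon bases with Cdkn1a and had at most 14 counts in a library, against at least 546 for Cdkn1a.

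Ccng1 (chromosome 11 from 40748552 to 40755311, minus strand) was the other gene with a p53 match in its promoter window. It had 163, 174 and 165 CPM with control supernatant and 164, 149 and 154 CPM with NFL supernatant. NFL replicates 2 and 3 were below every control library and NFL replicate 1 was within their range. Its log2 fold change of -0.10 (standard error 0.037, 95% interval -0.18 to -0.03) did not pass over all genes (edgeR adjusted p = 0.0919). It passed without NFL replicate 1 (log2 fold change -0.14, adjusted p = 0.0369) and with library size alone (adjusted p = 0.0473), and over 14 alternatives the adjusted p-value reached 0.444, without NFL replicate 2.

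Sesn1 (chromosome 10 from 41809935 to 41908424), a stress-induced inhibitor of mTORC1, had 42.8, 40.9 and 43.1 CPM with control supernatant and 39.8, 42.5 and 47.4 CPM with NFL supernatant. The NFL libraries spread on both sides of the control range. The difference on the log2 scale was 0.03 with a standard error of 0.064 (edgeR adjusted p = 0.85).

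The pro-apoptotic gene Bbc3 (chromosome 7 from 16308393 to 16318205) was the lowest of the 9 tested genes, with 3.17, 2.89 and 2.74 CPM against 2.48, 2.67 and 2.38 CPM, from 40 to 78 reads per library. All NFL libraries were below all control libraries, and 22.7% of the genes tested had groups that did not overlap. With so few reads the 95% interval of its log2 fold change of -0.22 ran from -0.69 to 0.24 (standard error 0.234, edgeR adjusted p = 0.673), so a difference of this size was not detectable at this depth. Phlda3 (chromosome 1 from 135766119 to 135769136), which restrains AKT, had 0 counts in each of the 6 libraries, which allows a level of up to 0.122 to 0.189 CPM by counting error alone.

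Of the inhibitors of cyclin-dependent kinases outside the p53 targets, Cdkn1b (p27, chromosome 6 from 134920401 to 134925513) had 98.4, 97.7 and 99.0 CPM with control supernatant and 91.1, 95.4 and 96.5 CPM with NFL supernatant. Each NFL library was below each control library, by little. The log2 fold change of -0.06 (standard error 0.043, 95% interval -0.15 to 0.03) did not pass (edgeR adjusted p = 0.491). With Trp53 and Bbc3, Cdkn1b made 3 of 9 tested genes whose groups did not overlap, beside the 22.7% of all genes given above.

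Cdkn2a (chromosome 4 from 89274471 to 89294653, minus strand) encodes both p16Ink4a, an inhibitor of CDK4 and CDK6, and p19Arf, which blocks Mdm2, from transcripts that share exons, and counts per gene do not separate them. It had 44.6, 46.1 and 49.5 CPM with control supernatant and 41.7, 50.2 and 47.0 CPM with NFL supernatant. The lowest and the highest library were both NFL libraries. Its log2 fold change was -0.01, with a 95% interval from -0.14 to 0.11 and a standard error of 0.063 (edgeR adjusted p = 0.945).

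Lmnb1, which encodes lamin B1 of the nuclear envelope, had 271, 287 and 265 CPM with control supernatant and 274, 272 and 280 CPM with NFL supernatant. The 3 NFL values lay within the control range. Its log2 fold change of 0.01 had a standard error of 0.032 and a 95% interval from -0.06 to 0.07 (edgeR adjusted p = 0.937), so a loss of Lmnb1 mRNA larger than 0.06 on the log2 scale lay outside the interval. The sign of this value turned with library size alone (-0.01).

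**Figure D2:**
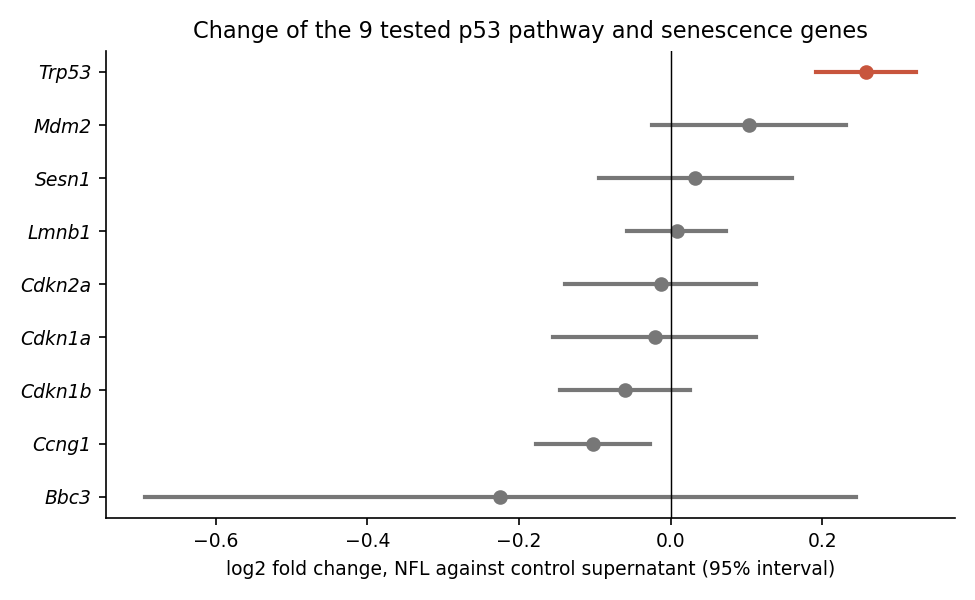
Log2 fold change (horizontal axis, NFL against control supernatant) of the 9 tested genes with its 95% interval from the edgeR fit. The interval of Trp53 (red) runs from 0.19 to 0.32, and that of Bbc3, the gene with the fewest reads, is the widest, from -0.69 to 0.24. The interval of Ccng1 also stays on one side of 0 but is not adjusted for the number of genes, and this gene did not pass the adjusted test.

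Levels were compared between genes per kilobase of exon, on the annotation GENCODE M21 (GRCm38). Lmnb1 had the highest level, 92.6 ± 3.95 CPM per kb with control supernatant, followed by Trp53 (51.3 ± 1.69), Ccng1 (47.6 ± 1.78) and Cdkn2a (39.9 ± 2.13). In the control libraries the ranges of Trp53 (49.5 to 52.8 CPM per kb) and Ccng1 (46.4 to 49.7) overlapped, although Trp53 was above Ccng1 within each library. The difference between these genes was not tested. Ccng1 lay above Cdkn2a (38.1 to 42.2). In the NFL libraries Trp53 (60.7 to 61.7 CPM per kb) lay above Ccng1 (42.6 to 46.6), whose range overlapped that of Cdkn2a (35.6 to 42.8). Below them came Cdkn1b at 21.6 ± 0.147 CPM per kb, then Sesn1 (10.6 ± 0.300) and Cdkn1a (10.4 ± 0.715), whose ranges overlapped in both groups, then Mdm2 (7.59 ± 0.402) and Bbc3 (1.38 ± 0.102), each SD over n = 3 control libraries. On this scale Cdkn2a, which is low in most young tissues, was among the more abundant of these transcripts in both groups. It had 39.5 ± 3.66 CPM per kb (SD, n = 3) with NFL supernatant. The scale divides by all annotated exon bases, 1172 for Cdkn2a and 4552 for Cdkn1b, which may differ from the transcripts expressed. Without this division Cdkn2a had 46.7 CPM with control supernatant, below Cdkn1b (98.3 CPM) and near Sesn1 (42.2 CPM). The rise of Trp53 took it to 61.3 ± 0.532 CPM per kb (SD, n = 3), still below Lmnb1.

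**Figure D3:**
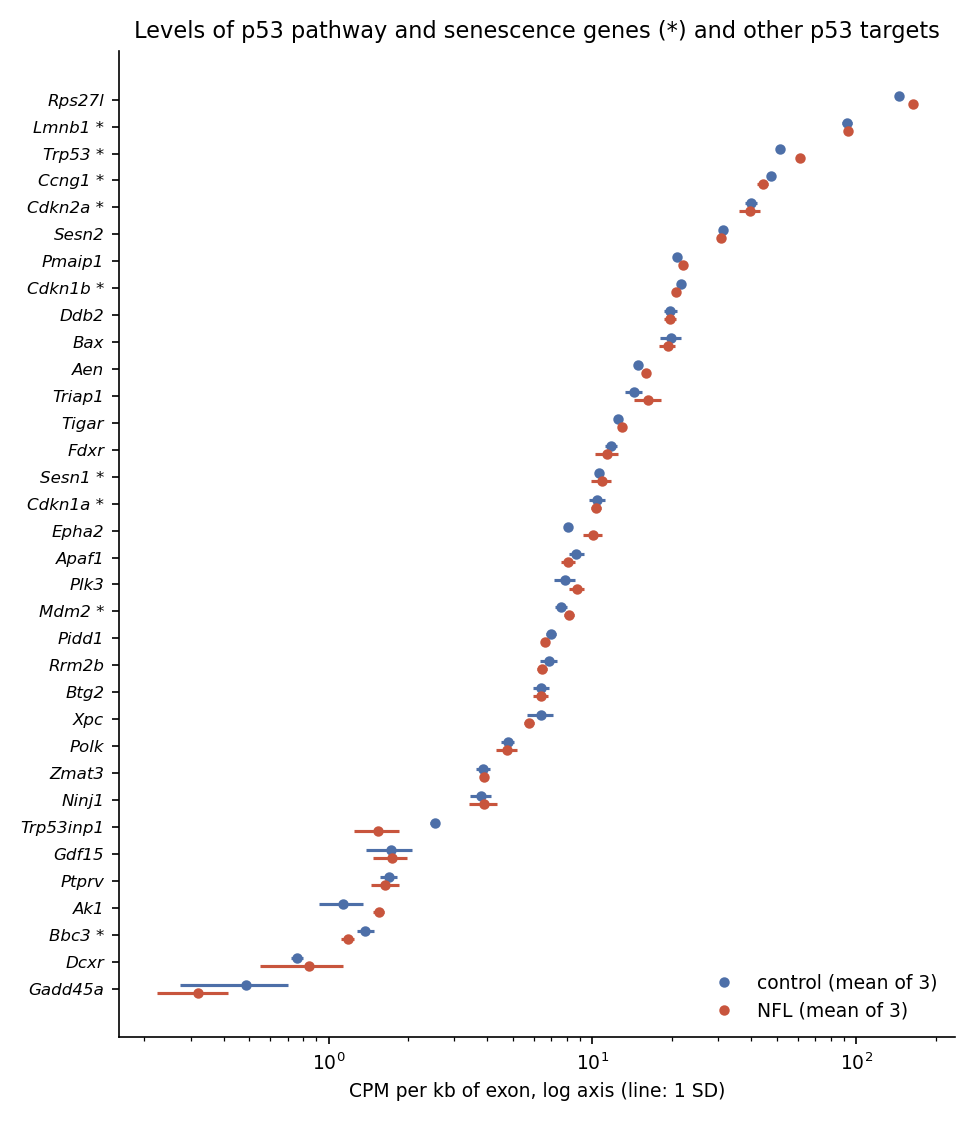
Level in CPM per kb of exon (log axis) of the tested p53 pathway and senescence genes (marked with an asterisk) and of other p53 targets, as the mean of 3 control libraries (blue) and 3 NFL libraries (red) with 1 SD as a line, hidden where it is smaller than the point. Levels run from Gadd45a at the bottom to Rps27l at the top, while the blue and red points of most genes lie close together, and Trp53inp1 and Trp53 are among those whose points separate.

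Another 35 genes are known targets of p53, of which 26 were tested and 3 passed, 2 higher and 1 lower. This is 11.5% of those tested, beside 7.0% of all genes, and the groups did not overlap for 8 of the 26, beside 22.7% of all genes. The list had a median log2 fold change of -0.004 against -0.001 over all genes (11 positive and 15 negative). Trp53inp1, which encodes a stress protein that promotes p53 activity and autophagy, fell from 16.3, 17.1 and 15.7 CPM with control supernatant to 7.83, 11.5 and 10.7 CPM with NFL supernatant. All NFL libraries were below all control libraries. The difference of -0.70 on the log2 scale (standard error 0.112) was the largest among the 26 tested targets (edgeR adjusted p = 1.35e-05). It passed in all 14 alternatives, with values from -0.80 without NFL replicate 2 to -0.55 without NFL replicate 1. Epha2, a receptor tyrosine kinase, rose, with a log2 fold change of 0.31 (edgeR adjusted p = 7.41e-04), and had 37.9 ± 1.37 CPM against 46.9 ± 3.84 CPM (SD, n = 3 each). Rps27l, a ribosomal protein S27-like gene, also rose (0.18, edgeR adjusted p = 0.00179) and had 119 ± 2.36 CPM against 134 ± 4.42 CPM (SD, n = 3 each).

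Further p53 targets of cell death and arrest had log2 fold changes of 0.01 for Zmat3, -0.04 for Bax, -0.0025 for Btg2 and 0.10 for Aen, none of which passed (edgeR adjusted p = 0.97, 0.841, 0.994 and 0.176). The death receptor gene Fas had 0 counts in every library, as did Plk2 and Eda2r. Of the 20 genes that act on p53, such as its kinases and ligases, 18 were tested and 2 passed, both higher. This is 11.1% of those tested, beside 7.0% of all genes. Atr, a kinase activated by stalled replication, rose by 0.18 on the log2 scale (102 ± 2.60 CPM to 115 ± 5.42 CPM, SD, n = 3 each, edgeR adjusted p = 0.00416), and lost the threshold without NFL replicate 3 (adjusted p = 0.0947). Its exons overlap those of antisense transcripts at 2.35 to 2.89 CPM. Hipk2, a kinase that phosphorylates p53, had a log2 fold change of 0.25 (edgeR adjusted p = 0.0265), which was lost on leaving out any of 4 libraries (control replicate 2 or 3, NFL replicate 1 or 2, highest adjusted p = 0.144). Mdm4, the partner of Mdm2, had a value of 0.08 (adjusted p = 0.25), the kinase gene Atm -0.09 (adjusted p = 0.205) and the phosphatase gene Ppm1d -0.16 (adjusted p = 0.274), and none of these passed in the edgeR test.

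Of 21 inhibitors of cyclin-dependent kinases and genes of the G1 phase 18 were tested and 3 passed, all of them cell cycle drivers and higher with NFL supernatant. This is 16.7% beside 7.0% of all genes, and over the list 11 values were positive and 7 negative, with a median log2 fold change of 0.03. The count fell to 1 without control replicate 1 and without NFL replicate 3. Ccne1, which encodes cyclin E1 and drives entry into S phase, rose from 54.8, 53.2 and 51.9 CPM to 63.2, 62.5 and 62.8 CPM (log2 fold change 0.24 with a standard error of 0.053, edgeR adjusted p = 0.00199). The NFL libraries stood above the control libraries, and the call held in all 14 alternatives. Ccne2, cyclin E2, had a log2 fold change of 0.15 (adjusted p = 0.0163) and the phosphatase gene Cdc25a of 0.11 (adjusted p = 0.0274) in the edgeR test. Ccne2 lost the threshold without control replicate 1, control replicate 3 or NFL replicate 3, and Cdc25a with library size alone and without control replicate 1, control replicate 2, NFL replicate 1 or NFL replicate 3. Ccne2 shares 609 exon bases with Ints8 on the other strand, which had 116 CPM against 121 CPM. The inhibitors Cdkn2b (log2 fold change -0.09, adjusted p = 0.878), Cdkn2c (-0.07, adjusted p = 0.64) and Cdkn2d (0.05, adjusted p = 0.831) did not pass in the edgeR test, and neither did Ccnd2 (-0.07, adjusted p = 0.148), Ccnd3 (0.02, adjusted p = 0.891) or Skp2 (0.18, adjusted p = 0.0879), a ligase subunit that removes the Cdkn1b protein.

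Among 18 proliferation genes, all tested, 2 passed and both were higher, with a median log2 fold change of 0.04. This is 11.1% beside 7.0% of all genes. Rrm2, a subunit of ribonucleotide reductase, rose by 0.10 on the log2 scale (558 ± 8.30 CPM to 599 ± 7.53 CPM, edgeR adjusted p = 0.0129) and Top2a, topoisomerase IIα, by 0.09 (906 ± 13.7 CPM to 962 ± 4.73 CPM, edgeR adjusted p = 0.0318), each SD over n = 3. The call of Rrm2 was lost without control replicate 3 or NFL replicate 2, and that of Top2a with library size alone and without control replicate 1 or any 1 of the NFL replicates. The proliferation marker Mki67 had 897, 952 and 912 CPM with control supernatant and 916, 896 and 911 CPM with NFL supernatant (log2 fold change -0.02, edgeR adjusted p = 0.772), and Pcna a log2 fold change of -0.02 (adjusted p = 0.856). The Mki67 values of the groups overlapped.

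Most secreted and lysosomal genes linked with senescence had too few counts to test, and of 25 genes 8 were tested. Among the 8, 5 rose and 1 fell, which is 75.0% of those tested beside 7.0% of all genes. The filter on low counts left out the other 17, and the lists were chosen with earlier results of these data known. This share is therefore no test of the list. The median log2 fold change was 0.30, but 0.20 without NFL replicate 1 and 0.09 when the filter on low counts was left out and more genes of the list entered. The rises were Cxcl10 (log2 fold change 1.04, edgeR adjusted p = 1.16e-11), Ccl5 (0.96, adjusted p = 1.94e-04), Csf2 (0.60, adjusted p = 3.27e-04), Icam1 (0.39, adjusted p = 1.05e-07) and Tnf (0.22, adjusted p = 0.00168), which encode chemokines, a growth factor, an adhesion molecule and a cytokine. Cxcl10 had 13.4, 10.3 and 16.1 CPM with control supernatant and 29.4, 27.7 and 26.3 CPM with NFL supernatant, without overlap. Cxcl10, Csf2 and Icam1 share exon bases with genes on the other strand, which had at most 32 counts in a library. Il6 had at most 3 counts in a library, Il1b at most 2, and Cxcl1, Ccl2, Mmp3, Igfbp3, Igfbp7 and Hgf had 0 in every library.

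Glb1, which encodes the lysosomal β-galactosidase behind the common stain for senescent cells, was the gene of this list that fell. It had 154, 141 and 149 CPM with control supernatant and 135, 132 and 132 CPM with NFL supernatant, and the groups did not overlap. On the log2 scale it fell by 0.16 (standard error 0.038, edgeR adjusted p = 0.0049), and the call was lost without control replicate 1 (adjusted p = 0.0829). Glb1 shares 165 exon bases with Tmppe on the same strand, which had 28.05 CPM against 31.26 CPM.

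Of 17 genes of the nuclear lamina and chromatin, other than Lmnb1, 16 were tested and 1 passed, Hmgb1, a chromatin protein that senescent cells release, with a log2 fold change of 0.09 (edgeR adjusted p = 0.043). It lost the threshold in 5 alternatives, which were library size alone, the DESeq2 Wald test and the fits without control replicate 3, NFL replicate 2 or NFL replicate 3 (adjusted p up to 0.264), and reads of its processed pseudogenes may be mixed with its own. Hmgb2 (0.08, adjusted p = 0.112), Lmna (0.04, adjusted p = 0.915) and Lmnb2 (0.09, adjusted p = 0.395) did not pass in the edgeR test. The share of the list that passed was 6.25%, beside 7.0% of all genes, and the median of the list was 0.04.

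**Figure D4:**
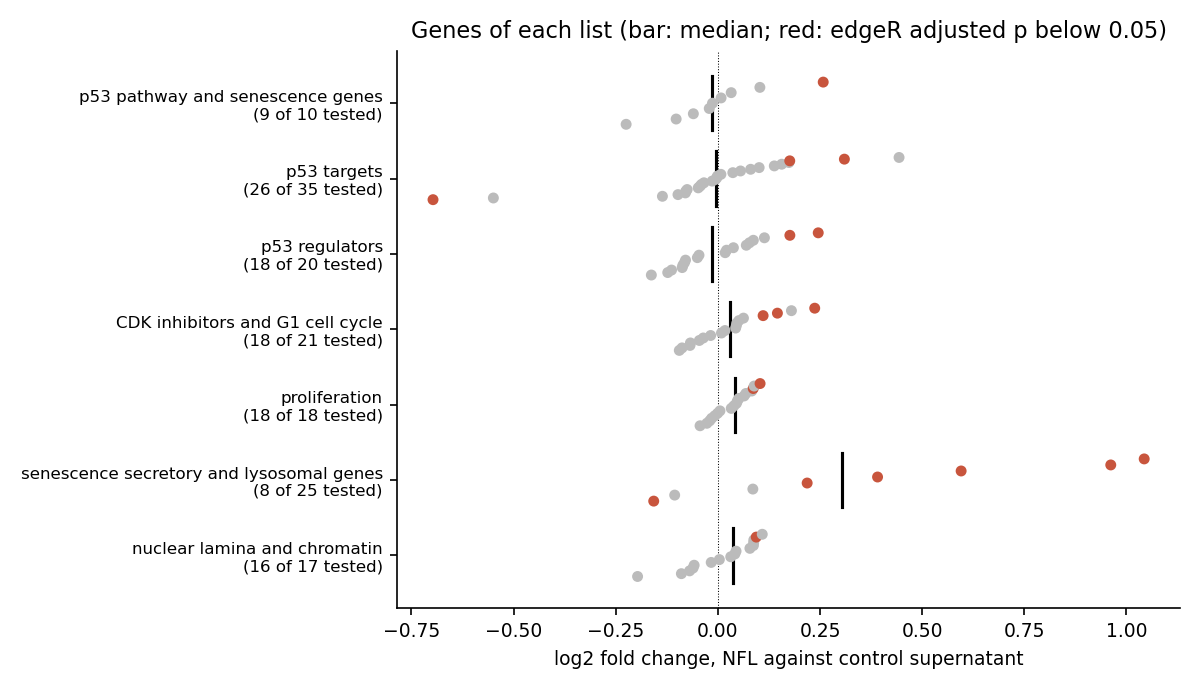
Log2 fold change (horizontal axis, NFL against control supernatant) of each tested gene of the 10 p53 pathway and senescence genes and of the other 6 lists, with the median of each list as a black bar and genes with an edgeR adjusted p-value under 0.05 in red. The median of the senescence secretory and lysosomal genes lies at 0.30 over 8 genes (0.09 without the filter on low counts and 0.20 without NFL replicate 1) and the other medians within 0.05 of 0, and the lowest point is Trp53inp1 at -0.70.

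Over the 6 libraries, the gene whose log2 CPM followed that of Trp53 most closely among 11322 genes was Ccne1 (Pearson r = 0.9985), followed by Samd9l (0.9972), Hnrnpa1 (0.9952), the T-cell receptor variable segment Trbv1 (0.9949) and Zc3hc1 (0.9927). These values are a description over 6 libraries that fall into 2 groups, and the difference between the groups is part of each r. Samd9l had a log2 fold change of 0.54 and Zc3hc1 of 0.17.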

How the data were processed

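The table deposited by the authors gives raw read counts, not normalized, for 55401 versioned Ensembl identifiers and 1 column per sample. The submitters' processing notes name GRCm39, R 4.2.1 and limma 3.54.2, while the aligner, the counting program, the annotation release and whether strand was used are not given in the sources used here. The paper's methods hold no section on these bulk libraries. Symbols covered 55141 identifiers. The counts carry no coordinates. Positions and exon lengths were taken from GENCODE M21 (GRCm38), with which 54349 identifiers were identical, and promoters from RefSeq (GRCm38.p6).

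Counts were analysed in R 4.3.3 with edgeR 4.0.16. Genes were kept by filterByExpr (minimum count 10, minimum total count 15), scaled by TMM (factors 0.994 to 1.007) and tested with glmQLFit and glmQLFTest without a replicate block, with Benjamini-Hochberg adjustment. The biological coefficient of variation was 3.48%. Within a group, the counts of any pair of libraries differed by more than sampling noise (chi-square 1.88 to 3.42 times its degrees of freedom). Alternatives were DESeq2 size factors, library size alone, 2 other count filters, the DESeq2 1.42.0 Wald test, limma-voom (limma 3.58.1), thinning to the depth of the smallest library, the replicate number as a block, each library left out and other thresholds. The procedure was tested on simulated data with the same dispersion for every gene. There edgeR recovered 73 of 100 genes changed by 0.5 on the log2 scale and 90 of 100 changed by 1. Smaller changes were not simulated.

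The 10 genes and the lists were chosen with earlier results of these data known, and the spelling of the NF-κB motif, 9 letters long, after a search with 1 more letter had been run. Named genes were the 10 genes, up to 8 genes past the threshold in each list, a set of fixed members of the lists and the 5 genes most like the one with the lowest p-value. Fas is among the fixed members. Others at 0, genes that overlap a named one and cell markers were named after their values were seen.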

Additional observations from a re-analysis of the deposited data

How the results depend on the processing

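Trp53, Trp53inp1, Epha2, Rps27l, Ccne1, Cxcl10, Ccl5, Csf2, Icam1 and Tnf passed the test in every alternative that gave them an adjusted p-value, including each library left out. With each library left out the number of genes past the threshold ran from 508 to 966 over all genes, 1 to 2 of the 10 p53 pathway and senescence genes, 3 to 3 of the p53 targets, 1 to 2 of the p53 regulators, 1 to 3 of the G1 genes, 0 to 2 of the proliferation genes, 5 to 6 of the secretory and lysosomal genes and 0 to 3 of the lamina and chromatin genes. At a threshold of 0.01 the counts were 500 over all genes, 1 for the regulators, 1 for the G1 genes, 0 for proliferation and 0 for lamina and chromatin. At 0.10 they were 1405 over all genes, 2 for the 10 genes, 4 for proliferation and 2 for lamina and chromatin. Library size alone gave 972 over all genes, 2 for the 10 genes, 1 for proliferation and 0 for lamina and chromatin. The lamina and chromatin count was 2 with at least 10 counts in every sample (1007 over all genes). It was 0 with the DESeq2 Wald test (731 over all genes) and 2 with thinned counts (931 over all genes). The cause was not tested.

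The sign turned for Lmnb1 with library size alone (-0.0063) and thinned counts (-0.0007). With libraries left out it turned for Cdkn1a (-0.0666 to 0.0209), Cdkn2a (-0.0715 to 0.0575), Sesn1 (-0.0385 to 0.0895) and Lmnb1 (-0.019 to 0.0425), none of which passed in any alternative. Other genes printed with a sign that turned on leaving out a library were Cdkn2b (-0.353 to 0.171), Bax (-0.0899 to 0.0305), Btg2 (-0.0606 to 0.0517), Zmat3 (-0.0337 to 0.0446), Mki67 (-0.0363 to 0.0071), Pcna (-0.0378 to 0.0116) and Ccnd3 (-0.0098 to 0.0454), and Lmna turned in another alternative (-0.0385). None of these passed either. Deviations of same-numbered libraries from their group means correlated at -0.012, 0.019 and 0.047 over 9132 genes. For libraries of different number the values ran from -0.055 to 0.032. No clear pairing by number was seen, and whether libraries shared a batch or a mouse was not tested. The fit with the replicate number as a block gave 1049 genes over all, 1 of the 10 genes and 2 lamina and chromatin genes. Bbc3, at 40 to 78 counts, had the widest interval of the tested p53 pathway and senescence genes.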
